A study of Homo sapiens with 6 samples.

Results

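A run of 60 neighbouring genes on the distal long arm of human chromosome 3, in bands 3q26 to q29, was followed across 3 prostate cancer cell lines. The genes were chosen from their position, given as between NCEH1 and PAK2. They were also chosen for small coordinated rises already seen in these arrays in both TEM lines against PC-3. Their differences from PC-3 are therefore a description. Where genes past a threshold against PC-3 are counted, the count describes the selected genes and is no evidence for them. The groups were PC-3, the parental line, from a bone metastasis of prostate cancer (2 arrays), TEM4-18 (2 arrays) and TEM2-5 (2 arrays). Each TEM line is a single isolate, taken from PC-3 cells after their passage through cultured endothelium of human lung microvessels, and TEM4-18 and TEM2-5 came from separate experiments. All 3 lines grew in the same serum-containing medium. The labels name no added agent or engineered allele. Nothing in them ties the 2 arrays of a line to separate cultures, so a p-value here sets a difference against array-to-array variation that may be purely technical. In bulk RNA, fewer cells expressing a gene and less RNA per cell cannot be told apart. Every difference between lines rests on 1 parental line and on 1 isolate for each TEM line.

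Of the 60 genes, 57 had at least 1 probe set that the platform annotation ties to that gene alone, 160 probe sets in all. A filter on low signals left 141 probe sets and 54 genes, out of 13614 tested genes. TNFSF10, LIPH and EIF4A2 stayed below that filter. PIK3CA, SENP2 and CLCN2 were not analysed here. Each tested gene was represented by its brightest probe set. Signals are MAS5 intensities in array units, and differences are on the scale log2(signal + 51.8), which understates the change of dim genes.

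Neighbouring genes on a chromosome are not as a rule members of one pathway. The distal long arm of chromosome 3 is known as a region that is often gained in squamous carcinomas of lung, cervix and head and neck, and the genes discussed there include the kinase subunit PIK3CA, the neddylation factor DCUN1D1 and the chromatin subunit ACTL6A. DNA copy number was not measured in this series. The 60 genes were grouped by what their products do: mitochondrial proteins, translation and RNA factors, transcription and chromatin factors, signalling proteins, the ubiquitin and SUMO systems, membrane transporters, enzymes of glycosylation and lipid metabolism, and a remainder.

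The promoters of 4 of the genes are shown because they cover the kinds of behaviour described here: a pair that faces away from a common intergenic stretch and was higher together (TBCCD1 and DNAJB11), the gene with the largest difference after the dim DGKG (GNB4), and the gene that was lower (MCCC1). Each run holds the 250 bases before the first start site that RefSeq lists for the gene in build GRCh38.p14, 5′ to 3′ on the gene's strand. Capitals mark matches on either strand to 4 short motifs: CAGGTG (the E-box bound by ZEB and Snail repressors), CCGGAAG (ETS), CCAAT, and GCATGCGC (NRF1).
TBCCD1, chr3:186570319-186570568, minus strand: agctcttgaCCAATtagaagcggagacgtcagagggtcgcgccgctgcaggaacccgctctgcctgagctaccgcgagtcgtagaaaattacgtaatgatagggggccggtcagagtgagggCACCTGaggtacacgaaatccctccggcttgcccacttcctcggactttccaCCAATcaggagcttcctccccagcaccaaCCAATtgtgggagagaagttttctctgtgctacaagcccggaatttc
DNAJB11, chr3:186570470-186570719, plus strand: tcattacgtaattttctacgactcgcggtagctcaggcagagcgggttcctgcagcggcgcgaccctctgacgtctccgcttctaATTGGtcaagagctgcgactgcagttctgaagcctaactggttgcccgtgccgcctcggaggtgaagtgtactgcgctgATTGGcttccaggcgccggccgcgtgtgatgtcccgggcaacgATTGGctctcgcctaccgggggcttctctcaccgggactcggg
GNB4, chr3:179451471-179451720, minus strand: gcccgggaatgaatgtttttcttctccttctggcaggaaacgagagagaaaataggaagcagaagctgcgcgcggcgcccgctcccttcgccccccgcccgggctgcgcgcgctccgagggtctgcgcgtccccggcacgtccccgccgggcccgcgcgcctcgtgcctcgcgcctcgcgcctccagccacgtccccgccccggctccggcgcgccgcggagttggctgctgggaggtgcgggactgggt
MCCC1, chr3:183099497-183099746, minus strand: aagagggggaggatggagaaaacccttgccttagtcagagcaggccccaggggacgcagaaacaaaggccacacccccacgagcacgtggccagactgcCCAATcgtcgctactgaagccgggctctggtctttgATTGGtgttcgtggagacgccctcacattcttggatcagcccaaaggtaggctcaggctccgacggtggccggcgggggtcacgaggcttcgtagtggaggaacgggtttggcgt

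The start sites of TBCCD1 and DNAJB11 lie 402 bases apart on opposite strands, so their windows overlap, and the first CCAAT of TBCCD1 is also the first one of DNAJB11. DNAJB11 holds 3 CCAAT matches and TBCCD1 holds 3 together with 1 E-box, MCCC1 holds 2 CCAAT matches, and GNB4 holds none of the 4 motifs. A window was listed for 49 of the 54 tested genes, 18 of which had several. E-boxes stood in 18.4% of the 49 first windows and in 17.5% of 27305 promoters of the same length, CCAAT in 32.7% and 33%, ETS in 14.3% and 8.82%, and NRF1 in 4.08% and 2.81%. The windows of the 3q genes were richer in G and C, with a median of 64.4% against 58.0% over all promoters. A match is a description of letters and not a binding site.

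Median signals of the 6 arrays lay between 267 and 317. Summed epithelial marker signal (KRT8, KRT18, KRT19, EPCAM and CDH1) was 174728 to 181499 in PC-3, 62193 to 68654 in TEM4-18 and 75467 to 82589 in TEM2-5. In TEM4-18 the E-cadherin gene CDH1 had signals of 25.7 and 57.8, close to the pseudocount. The 10 endothelial markers summed to 2022 to 2469 in PC-3, 2337 to 3696 in TEM4-18 and 2884 to 3252 in TEM2-5, and 7 of them, including VWF and CDH5, were below the filter. KDR, 1 of the 3 above it, read 306 and 146 in PC-3, 1870 and 975 in TEM4-18 and 1243 and 1258 in TEM2-5. EGFL7 was lower in both TEM lines, at 391 and 497, 278 and 313, and 293 and 272 in the same order. PECAM1 overlapped PC-3 in each TEM line, at 1073 and 736, 868 and 505, and 1042 and 850. Summed signal of 7 fibroblast markers, mostly COL1A1, was 9169 to 10814 in PC-3, 20116 to 23332 in TEM4-18 and 22034 to 25409 in TEM2-5. COL1A1 alone of these was higher on both TEM4-18 arrays than on both PC-3 arrays. LUM, PDGFRA, COL3A1 and COL1A2 were lower there, with LUM at 473 and 760 in PC-3 against 2.95 and 42.3 in TEM4-18. In TEM2-5, COL1A1, PDGFRA and COL3A1 were above PC-3, and LUM and the dim PDGFRB below it. The leukocyte markers that could be read were all below the filter. The part of these shifts in the 3q differences was not tested.

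The first question was how the 54 genes stood in each TEM line against PC-3. As a group they were higher: the median log2 fold change was 0.55 in TEM4-18, or 1.46-fold, and 0.33 in TEM2-5, or 1.26-fold, while the median over all 13614 tested genes was -0.04 and -0.02. In TEM4-18, 49 of 54 genes lay above 0, against 46.3% of all genes, with an interquartile range of 0.28 to 0.78. In TEM2-5, 50 of 54 lay above 0, against 47.2%, with an interquartile range of 0.13 to 0.55. A log2 difference of at least 1 upward was reached by 5 genes in TEM4-18 (3.24% of all genes) and 4 in TEM2-5 (2.25%). The dim DGKG was among them in each line. Downward, a difference of that size was reached by 0 of the 54 in either line, against 6.61% and 4.05% of all genes.

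Single arrays showed the same picture. Set against the PC-3 mean, the median of the 54 genes was 0.56 and 0.53 on the 2 TEM4-18 arrays and 0.36 and 0.34 on the 2 TEM2-5 arrays. The PC-3 arrays themselves lay at 0.003 and -0.003. Between the 2 arrays of one line, the median difference of these genes was -0.006 in PC-3, -0.006 in TEM4-18 and 0.033 in TEM2-5, and a single gene typically differed by 0.096 to 0.104.

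The limma fit, at a Benjamini-Hochberg adjusted p under 0.05, placed 41 of the 54 genes higher and 1 lower in TEM4-18. Over all tested genes it placed 13.3% higher and 16.0% lower, 29.3% in either direction. In TEM2-5 it placed 26 higher and 1 lower, against 8.98% and 10.1% of all genes and 19.0% in either direction, and all 26 were among the 41 of TEM4-18. By probe set, it placed 77 of 141 higher and 2 lower in TEM4-18 (12.8% and 12.8% of all probe sets, 25.6% together), and 52 higher and 2 lower in TEM2-5 (8.67% and 7.59%, 16.3% together). These genes were selected on these contrasts, which share the PC-3 arrays, so the counts carry no support of their own. Without the mean-variance trend in the fit, the TEM2-5 count was 8 in place of 27, and the share of all genes 7.62%. The TEM4-18 count was then 28 in place of 42, and the share of all genes 17.2%. Both TEM4-18 arrays lay above both PC-3 arrays for 45 genes (28.3% of all genes) and below for 3 (34.8%), and both TEM2-5 arrays above for 43 (27.7%) and below for 2 (32.2%). All 4 TEM arrays lay above both PC-3 arrays for 41 of the 54 genes, against 21.1% of all genes.

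**Figure D1:**
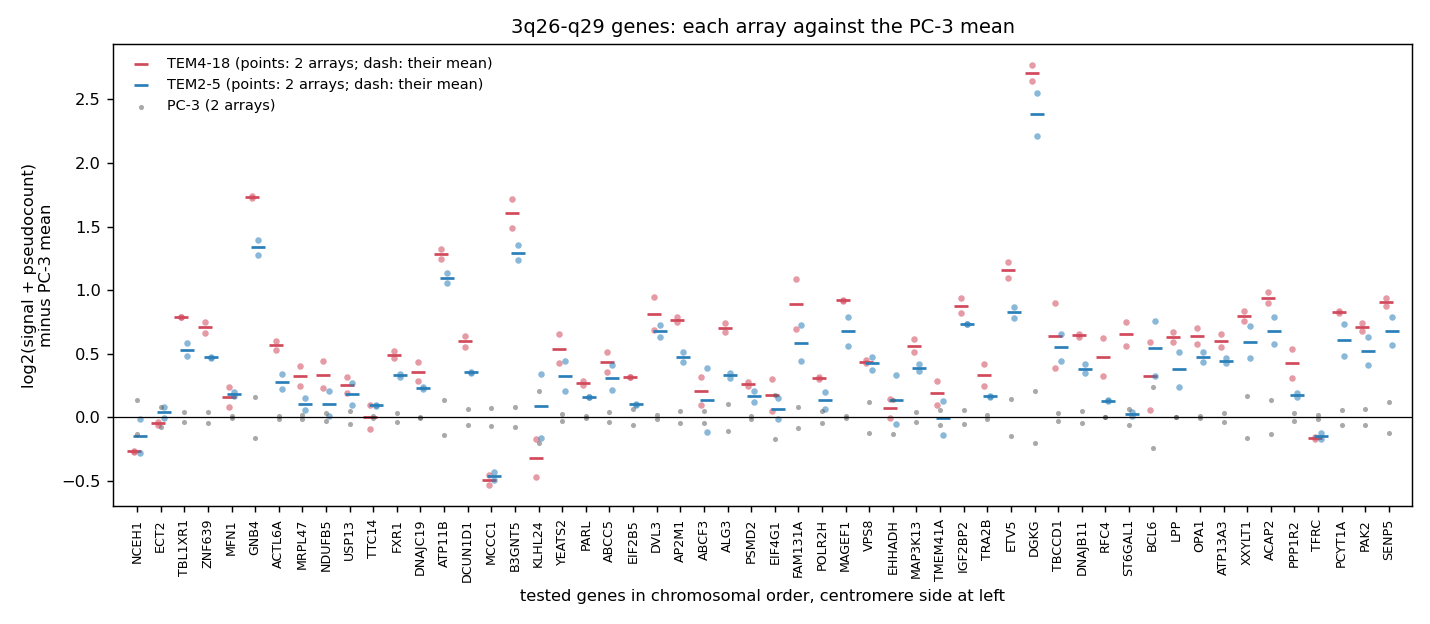
Log2(signal + 51.8) of each array minus the PC-3 mean, for the 54 tested genes in chromosomal order (TEM4-18 red, TEM2-5 blue, PC-3 grey; points are arrays, dashes are means of 2 arrays). Most genes from TBL1XR1 onward lie above 0 in both TEM lines, with TEM4-18 the higher one, while NCEH1, ECT2, MCCC1, KLHL24 and TFRC do not follow.

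Position along the arm was examined next. At the centromere side, NCEH1, a neutral cholesterol ester hydrolase, was at -0.27 in TEM4-18 and -0.15 in TEM2-5, and its neighbour ECT2 at -0.05 and 0.04. The next tested gene of the selected set, TBL1XR1, which encodes a subunit of nuclear corepressor complexes, was at 0.79 and 0.53. Between ECT2 and TBL1XR1 lay the dim tested genes SPATA16 (0.456 and 0.201), NLGN1 (1.079 and 0.363) and LINC01208 (0.642 and 0.796). These were not in the set, and the fit called none of them in either line. NCEH1 had signals of 12854 and 15457 in PC-3, 11624 and 11740 in TEM4-18, and 11585 and 13926 in TEM2-5. TBL1XR1 had 12849 and 13556 in PC-3, 22819 and 22858 in TEM4-18, and 18479 and 19756 in TEM2-5. The TEM arrays of TBL1XR1 thus stood clear of PC-3, whereas the TEM2-5 arrays of NCEH1 overlapped it. Just outside the run, FNDC3B was at -0.37 and -0.04. At the telomere side, PAK2 was at 0.71 and 0.52 and SENP5 at 0.91 and 0.68, and the next gene outward, NCBP2, at 0.68 and 0.46.

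In map-order groups of 18 tested genes, the median log2 fold change in TEM4-18 was 0.35 from NCEH1 to KLHL24, 0.44 from YEATS2 to IGF2BP2 and 0.64 from TRA2B to SENP5. In TEM2-5 the same groups stood at 0.21, 0.32 and 0.50. The number of genes above 0 in TEM4-18 was 14, 18 and 17 of 18.

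Genes of the same stretch that are not among the 60 were also read. In RefSeq order the stretch runs from TNFSF10, listed before NCEH1, to SENP5, listed after PAK2. RefSeq order places 47 other tested genes there, and their median was 0.39 in TEM4-18 and 0.25 in TEM2-5, with 36 of 47 above 0 in each. The limma fit placed 15 of them higher and 4 lower in TEM4-18, and 10 and 3 in TEM2-5. Over all tested genes the shares were 13.3% and 16% in TEM4-18, and 8.98% and 10.1% in TEM2-5. The 3 at the top were FAM43A (1.91 and 1.84), TMEM44 (1.96 and 1.57) and the ubiquitin ligase gene RNF168 (1.22 and 0.94). At the bottom stood SLC51A, an organic solute transporter subunit (-1.92 and -1.60), the tight junction gene CLDN1 (-1.66 and -0.74) and the Notch target HES1 (-0.85 and -0.93). The 14 tested genes beyond SENP5 had medians of 0.43 and 0.30, and the 660 before the stretch had medians of -0.03 and -0.01. In consecutive blocks of 30 tested genes, the 22 blocks before NCEH1 had medians between -0.18 and 0.14 in TEM4-18. The 4 blocks from NCEH1 to the end of the chromosome stood at 0.47, 0.40, 0.36 and 0.58.

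**Figure D2:**
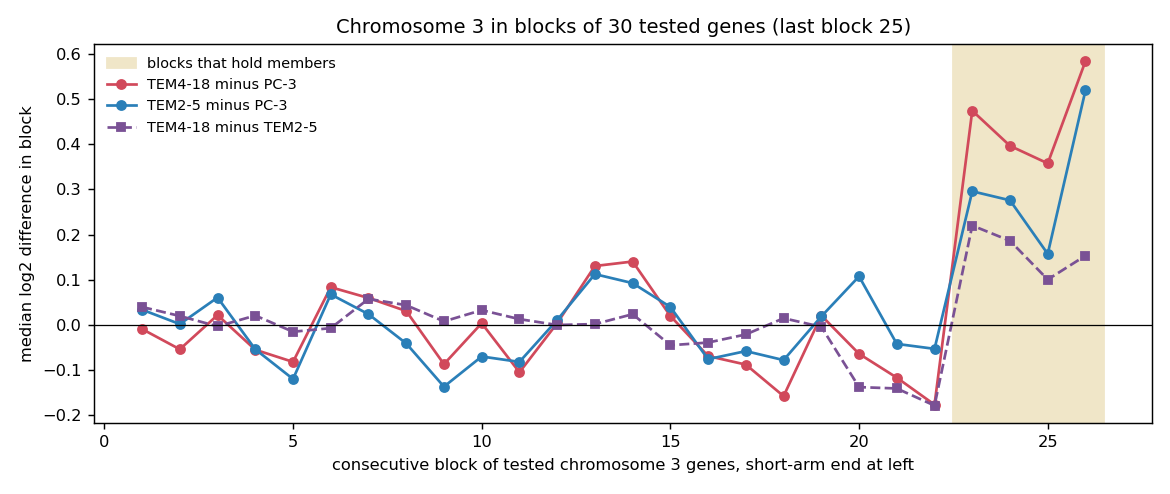
Median log2 difference in consecutive blocks of 30 tested genes along chromosome 3 (25 in the last block), for TEM4-18 minus PC-3 (red), TEM2-5 minus PC-3 (blue) and TEM4-18 minus TEM2-5 (purple, dashed). The 4 shaded blocks, from NCEH1 to the long-arm end, lie at 0.36 to 0.58 in TEM4-18 and 0.16 to 0.52 in TEM2-5, above each of the 22 earlier blocks. They hold 21, 21, 9 and 3 of the 54 genes, which were chosen for rises against PC-3.

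The counts of called genes by role, here and below, are a description, since the genes were selected on these contrasts. Beside them stand the shares of all genes, 13.3% higher and 16% lower in TEM4-18, and 8.98% and 10.1% in TEM2-5. By role, signalling genes had the largest median, 0.76 in TEM4-18 and 0.60 in TEM2-5 over 6 tested genes, 5 of which the fit placed higher in each line. Both the 6 and the 5 include the dim DGKG, with the limits given below. GNB4, a G protein beta subunit, had signals of 3730 and 4672 in PC-3, 14074 and 13954 in TEM4-18, and 10208 and 11080 in TEM2-5. Both TEM lines stood well clear of PC-3, at 1.73 ± 0.11 (SE) and 1.34 ± 0.11 on the log2 scale. DGKG, a diacylglycerol kinase that removes the second messenger diacylglycerol, read 50 and 24.7 in PC-3, 499 and 550 in TEM4-18, and 465 and 358 in TEM2-5. Its PC-3 signals lay below the pseudocount, and it was the 1 gene of the 54 that passed the filter through the TEM arrays alone. Its log2 differences of 2.71 and 2.38 are therefore set by the pseudocount: they were 3.86 and 3.50 with a pseudocount of 1, and 1.58 and 1.33 with 4 times the one used.

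PAK2, a p21-activated kinase downstream of RAC and CDC42, had signals of 6433 and 7013 in PC-3, 11254 and 10774 in TEM4-18, and 8927 and 10438 in TEM2-5. Its other 4 tested probe sets stood at 0.16 to 0.47 in TEM4-18 and at -0.02 to 0.14 in TEM2-5. With all averaged, PAK2 was at 0.18 in TEM2-5 and no longer called there, nor was it without TEM2-5 replicate 2 (0.41). DVL3, a Dishevelled adaptor of WNT receptors, stood at 0.82 and 0.68, and the kinase gene MAP3K13 at 0.56 and 0.39. ECT2, an exchange factor needed for cytokinesis, read 23268 and 20917 in PC-3, 21534 and 21116 in TEM4-18, and 22009 and 23347 in TEM2-5. Each TEM line overlapped PC-3 for ECT2, while both TEM2-5 arrays lay above both TEM4-18 arrays. TNFSF10, the death ligand TRAIL, was dim on every array, with signals of its brightest probe set of 225 and 187 in PC-3, 104 and 125 in TEM4-18, and 176 and 120 in TEM2-5. The lipase gene LIPH had 192 and 191, 87.9 and 213, and 238 and 85.3 in the same order of lines, and the helicase gene EIF4A2 had 39.4 and 81.1, 22 and 160, and 161 and 125. All 3 genes stayed below the filter, and no difference is given for them.

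Among enzymes of glycosylation, lipid metabolism and secretory folding, 6 of 8 tested genes were placed higher in TEM4-18 and 5 in TEM2-5, with medians of 0.68 and 0.35. B3GNT5, which starts the lacto-series chains of glycolipids, had signals of 5995 and 5357 in PC-3, 18786 and 15968 in TEM4-18, and 14576 and 13396 in TEM2-5. Its TEM arrays were all more than 2-fold above the PC-3 arrays, with log2 fold changes of 1.60 ± 0.10 (SE) and 1.29 ± 0.10. PCYT1A, the rate-limiting enzyme of phosphatidylcholine synthesis, stood at 0.83 and 0.60, the xylosyltransferase gene XXYLT1 at 0.79 and 0.59, and the mannosyltransferase gene ALG3 at 0.70 and 0.33. DNAJB11, a chaperone of the endoplasmic reticulum whose promoter is shown above, stood at 0.64 and 0.38, and its divergent neighbour TBCCD1 at 0.64 and 0.55. ST6GAL1, which caps N-glycans with sialic acid, was at 0.65 in TEM4-18 and 0.03 in TEM2-5. EHHADH, a peroxisomal enzyme of fatty acid oxidation, was at 0.07 and 0.14.

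Membrane transport and trafficking genes had medians of 0.52 and 0.43, with 6 and 4 of 8 placed higher. ATP11B, a phospholipid flippase, had signals of 1358 and 1110 in PC-3, 3158 and 2979 in TEM4-18, and 2753 and 2612 in TEM2-5. ACAP2, a GTPase-activating protein for ARF6, read 5800 and 4803 in PC-3, 9872 and 10485 in TEM4-18, and 7880 and 9134 in TEM2-5. Neither gene overlapped between PC-3 and a TEM line. ATP13A3, a polyamine transporter, stood at 0.60 and 0.44, and VPS8 and ABCC5, an endosomal tethering subunit and a drug exporter, at 0.44 and 0.42 and at 0.43 and 0.31. TFRC, the transferrin receptor that brings iron into cells, was the brightest of all 54 genes. It had signals of 52842 and 51540 in PC-3, 46887 and 46443 in TEM4-18, and 46310 and 47737 in TEM2-5, so all 4 TEM arrays were slightly below PC-3 (log2 -0.16 ± 0.05, SE, and -0.15 ± 0.05), and the fit called it in neither line.

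All 8 transcription, chromatin and DNA genes lay above 0 in both lines, with medians of 0.55 and 0.40, and 7 and 4 were placed higher. ETV5, an ETS transcription factor that responds to MAP kinase and FGF signalling, had signals of 3172 and 2582 in PC-3, 6163 and 6730 in TEM4-18, and 4960 and 5261 in TEM2-5. This gene stood at 1.16 ± 0.12 (SE) and 0.82 ± 0.12, and all 5 of its tested probe sets were above 0 in both lines. ZNF639 was at 0.71 and 0.47, the BAF complex subunit ACTL6A at 0.56 and 0.28, and the clamp loader subunit RFC4 at 0.47 and 0.13. BCL6, a transcriptional repressor of germinal centre cells, read 3078 and 2190 in PC-3, 3948 and 2702 in TEM4-18, and 4436 and 3265 in TEM2-5. TEM4-18 overlapped PC-3, both TEM2-5 arrays lay above PC-3, and the fit called BCL6 in neither line.

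Translation and RNA genes had medians of 0.32 and 0.13, lower than the set as a whole, with 4 and 2 of 7 placed higher. IGF2BP2, an RNA-binding protein that stabilises growth-related transcripts, had signals of 8018 and 7436 in PC-3, 13671 and 14819 in TEM4-18, and 12845 and 12861 in TEM2-5. This was the group's largest difference, at 0.88 ± 0.08 (SE) and 0.73 ± 0.08. FXR1, a relative of the fragile X protein, stood at 0.49 and 0.33, while the scaffold EIF4G1 was at 0.18 and 0.07 and the guanine exchange subunit EIF2B5 at 0.32 and 0.10.

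Mitochondrial genes also had smaller medians, 0.32 and 0.16 over 7 genes, with 5 placed higher and 1 lower in TEM4-18 and 1 each way in TEM2-5. OPA1, the dynamin-like GTPase that fuses inner membranes, had signals of 5220 and 5178 in PC-3, 7779 and 8508 in TEM4-18, and 7056 and 7455 in TEM2-5. MFN1, which fuses outer membranes, stood at only 0.16 and 0.18, and PARL, the rhomboid protease of the inner membrane, at 0.27 and 0.16. The respiratory complex I subunit NDUFB5 and the ribosomal protein MRPL47 were at 0.33 and 0.11 and at 0.32 and 0.10. MCCC1, a subunit of the carboxylase that breaks down leucine, read 2545 and 2296 in PC-3, 1748 and 1651 in TEM4-18, and 1698 and 1777 in TEM2-5. It was the single gene of the 54 that the fit placed lower, in both lines, at -0.50 ± 0.13 (SE) and -0.47 ± 0.13. That call was lost in TEM2-5 on leaving out any single PC-3 or TEM2-5 array (log2 -0.39 to -0.54), and in TEM4-18 without PC-3 replicate 1 (-0.42) or TEM4-18 replicate 2 (-0.46).

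In the ubiquitin, SUMO and proteasome group, 3 of 5 tested genes were placed higher in TEM4-18 and 2 in TEM2-5. These were SENP5, a SUMO protease (0.91 and 0.68), DCUN1D1, which promotes neddylation of cullins (0.60 and 0.35), and in TEM4-18 the proteasome subunit PSMD2 (0.26 and 0.16). The remaining genes included MAGEF1, with signals of 3968 and 4008 in PC-3, 7617 and 7548 in TEM4-18, and 5894 and 6944 in TEM2-5, and LPP, a focal adhesion protein, at 0.63 and 0.38 by its brightest probe set. All 5 genes of that remainder were placed higher in TEM4-18 and 3 in TEM2-5.

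**Figure D3:**
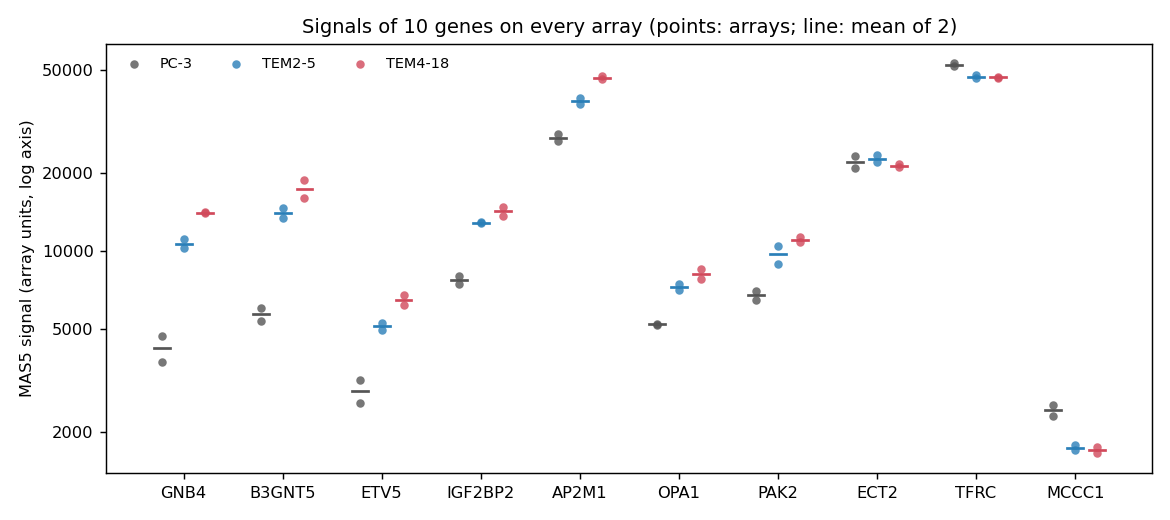
MAS5 signals of 10 genes on a log axis (points are arrays, lines are means of 2; PC-3 grey, TEM2-5 blue, TEM4-18 red). GNB4, B3GNT5, ETV5, IGF2BP2, AP2M1, OPA1 and PAK2 lie above PC-3 on all 4 TEM arrays, ECT2 overlaps PC-3 in each TEM line, and TFRC and MCCC1 lie below PC-3.

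**Figure D4:**
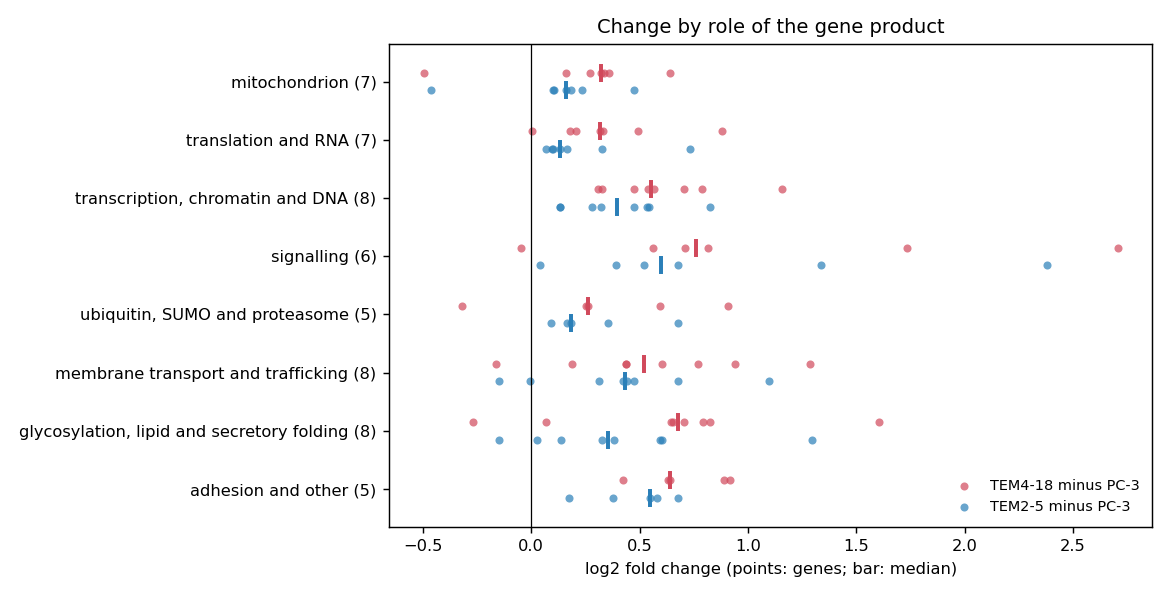
Log2 fold change against PC-3 for the 54 genes grouped by role (points are genes, bars are medians, the number tested is in brackets; TEM4-18 red, TEM2-5 blue). Each of the 8 roles has a median above 0 in both lines, from 0.26 to 0.76 in TEM4-18 and from 0.13 to 0.60 in TEM2-5.

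Several genes were read by more than 1 probe set, and these did not always match. Of 38 genes with several tested probe sets, 27 had all of them on the same side of 0 in TEM4-18, and 27 in TEM2-5. TTC14 lay at 0.001 in TEM4-18 by its brightest probe set, with signals of 4873 and 4833 in PC-3, 5179 and 4553 in TEM4-18, and 5198 and 5174 in TEM2-5, while its other probe sets stood at 0.90 and 1.03. KLHL24, a substrate adaptor for cullin ligases, had signals of 1582 and 1174 in PC-3, 972 and 1204 in TEM4-18, and 1210 and 1743 in TEM2-5 by its brightest probe set. That name ends in _x_at, which marks probes that can match other transcripts, and its value in TEM4-18 was -0.32, against 0.92 by the brightest KLHL24 probe set without such a name. Another one, also without it, read 1008 and 593 in PC-3 and 728 and 596 in TEM4-18, so the probe sets disagree beyond that naming. ATP11B went the other way, since its brightest probe set stood at 1.28 in TEM4-18 and the average of its probe sets at 0.26. The 6 tested ATP11B probe sets ranged from -0.52 to 1.28 in TEM4-18 and from -0.56 to 1.09 in TEM2-5, and with all averaged it was called in neither line. LPP ranged from -1.07 to 1.12 in TEM4-18 over 7 probe sets, and 1 of them was called lower in both lines (-1.07 and -1.06). SENP5 stood at 0.91 by its brightest probe set and at -0.31 and -0.45 by the other two in TEM4-18. Signs were mixed in both lines for ATP11B, KLHL24, LPP, MAP3K13, SENP5, USP13 and VPS8. In TEM4-18 they were also mixed for B3GNT5, BCL6, ECT2 and PARL, and in TEM2-5 for PAK2, TFRC, TMEM41A and YEATS2. In TEM4-18 the lowest value was close to 0 for B3GNT5 (-0.001) and PARL (-0.005). The same held in TEM2-5 for TMEM41A (-0.008), PAK2 (-0.017) and YEATS2 (-0.023). For these genes, for TTC14 and for others given below, the size depends on the probe set. For the other genes with mixed signs the sign depends on it too, though only LPP had a value below 0 that was called. Near 0 lay the lowest TEM4-18 values of ECT2 (-0.049), USP13 (-0.056) and BCL6 (-0.066), and the highest TEM2-5 value of TFRC (0.037). The probe sets below 0 of MAP3K13 and VPS8 were dim, with mean signals of 322 and 259, and the brightest ones of both genes lay above 0 in both lines. Size also varied among genes with every probe set on the same side of 0, in both directions from the brightest one. In TEM4-18, ACAP2 stood at 0.94 by its brightest probe set and 0.274 by the other, and ATP13A3 at 0.602 and 0.225. Neither of those lower values was called. PCYT1A stood at 0.826, 0.458 and 0.447. TBL1XR1, at 0.789 by its brightest, ranged from 0.074 to 1.787, and FXR1, at 0.493, from 0.343 to 1.679.

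The comparison between the TEM lines was not used to choose the genes, and it was tested. It does share the TEM arrays with the contrasts that were used. The 54 genes stood higher in TEM4-18 than in TEM2-5 by a median of 0.19 on the log2 scale, against -0.01 over all genes, and 45 of 54 lay above 0, against 47.7% of all genes. None differed by 1 or more on the log2 scale, as 0.382% of all genes did upward and 2.5% downward. Both TEM4-18 arrays exceeded both TEM2-5 arrays for 35 of the 54 genes, against 20.4% of all genes, and the reverse held for 2, against 23.9%. The medians of the 4 possible pairs of a TEM4-18 and a TEM2-5 array were 0.16 to 0.21. Mean signals ran in the order PC-3, TEM2-5, TEM4-18 for 44 of 54 genes, against 24.3% of all genes. That order includes TEM2-5 above PC-3, for which the genes were chosen, so this count is a description and no evidence for them.

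Gene by gene, the test found little. AP2M1 passed the threshold and no other gene of the 54 did, where limma called 0.492% of all genes higher and 2.26% lower, 2.75% together. By probe set, 1 of 141 was called higher and 0 lower, against 0.357% and 1.43%, 1.78% together. At an unadjusted p under 0.05, 22 of the 54 genes were higher in TEM4-18 and 0 lower, against 5.64% and 9.17% of all genes, 14.8% together. AP2M1, the medium subunit of the AP-2 adaptor of clathrin-mediated endocytosis, had signals of 26428 and 28187 in PC-3, 45967 and 47110 in TEM4-18, and 38876 and 36984 in TEM2-5. The lines did not overlap, and TEM4-18 exceeded TEM2-5 by 0.295 ± 0.063 (SE, limma adjusted p = 0.0453, higher on 2 of 2 arrays). The call was lost when any single TEM array was left out (adjusted p = 0.138 to 0.260), when dim probe sets were kept (adjusted p = 0.168) and without the mean-variance trend (adjusted p = 0.432). The next smallest adjusted p-values by limma were 0.0929 for ACTL6A (0.29), 0.0952 for ALG3 (0.38) and 0.115 for DNAJB11 (0.26). The largest difference, 0.62 for ST6GAL1, had an adjusted p of 0.134 by limma, with signals of 683 and 624 in PC-3, 1129 and 986 in TEM4-18, and 658 and 675 in TEM2-5.

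The blocks along chromosome 3 gave TEM4-18 minus TEM2-5 medians of 0.22, 0.19, 0.10 and 0.15 from NCEH1 to the end of the long arm. The 3 blocks just before NCEH1 lay on the other side of 0, at -0.14, -0.14 and -0.18, and the 19 before those between -0.05 and 0.06. The 47 other tested genes of the stretch had a median of 0.165 between the TEM lines. Of these limma called 0, against 2.75% of all genes. At an unadjusted p under 0.05 there were 7 of 47, where all genes gave 14.8%.

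**Figure D5:**
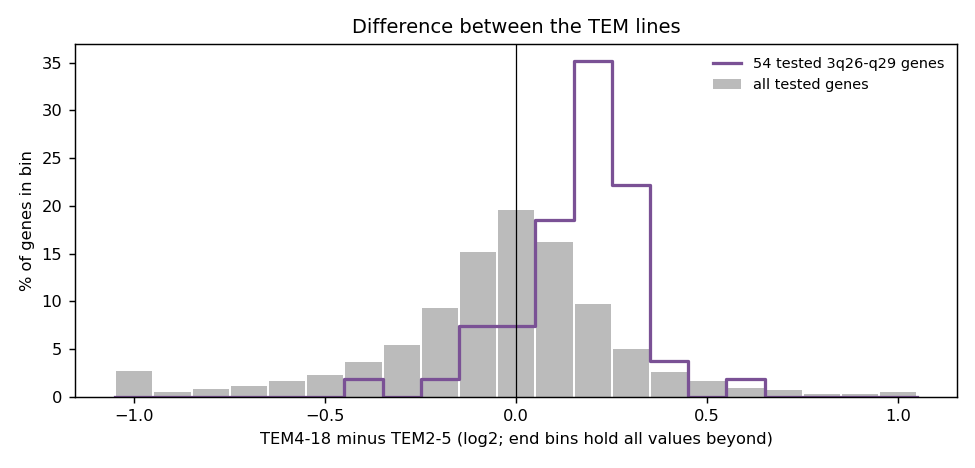
Share of genes, in percent, by the log2 difference TEM4-18 minus TEM2-5, for all 13614 tested genes (grey bars) and the 54 genes of 3q26-q29 (purple outline), with values beyond the axis in the end bins. The 3q genes gather around 0.2, with 45 of 54 above 0, whereas all genes centre near 0.

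Genes elsewhere in the genome whose products work with or resemble those of the 3q genes were read as well, from a list of 78 subunits, partners and paralogs. Of these 68 were tested, with medians of 0.04 in TEM4-18 and 0.00 in TEM2-5. The fit placed 8 of 68 higher and 8 lower in TEM4-18, against 13.3% and 16.0% of all genes, and 5 higher and 2 lower in TEM2-5, against 8.98% and 10.1%. Ranked by the mean over both lines, the largest differences upward were those of AP2B1, the beta subunit of the same AP-2 adaptor as AP2M1 (1.00 and 0.69), the RNA-binding protein gene IGF2BP3 (0.62 and 0.72) and PIK3CD, a catalytic subunit of PI3-kinase (0.65 and 0.47). Downward they were ETV1, a relative of ETV5 (-1.03 and -0.36), the splicing regulator gene TRA2A (-0.82 and -0.55) and the proteasome subunit gene PSMD11 (-0.44 and -0.37). Their 3q relatives lay on the other side of 0 in both lines, ETV5 at 1.16 and 0.82, TRA2B at 0.33 and 0.16 and PSMD2 at 0.26 and 0.16. The 3q genes were chosen for rises and these partners are the largest falls of 68, so the opposite signs are only a description. Between the TEM lines, ETV1 was the 1 partner gene called, at -0.67 for TEM4-18 minus TEM2-5 (limma adjusted p = 0.0401).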

How the data were processed

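The deposited values are linear signal intensities for 54675 probe sets on 6 arrays, made by the authors with MAS5 per the submitters' processing notes. A version and genome build are not given in the sources used here. The 2% trimmed mean was 1500.17 to 1500.18 on every array, so values were not scaled again. The 62 control probe sets were left out. The platform annotation gave 41097 probe sets 1 symbol, 1801 several and 11777 none. Gene order came from a RefSeq table (GRCh38.p14), by gene ID, for 13586 of 13614 tested genes.

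Intensities became log2(value + 51.8), the pseudocount being the 20th percentile. Probe sets with a mean above 174, the 40th percentile, were kept (32747). One limma model (version 3.58.1, R 4.3.3) took all 6 arrays, with a mean-variance trend in eBayes and 3 residual degrees of freedom. Tests were two-sided, p-values were adjusted across every probe set by Benjamini-Hochberg, and the threshold was 0.05. The script was tested on simulated data. The number of arrays limits the precision.

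The genes, role groups and partner list were chosen with earlier results of these data known. Values on every array are given for the 8 largest and 6 smallest mean changes, the ends of the run, genes called between the TEM lines and 8 genes always named, of which PIK3CA was not analysed here. ST6GAL1, TBL1XR1, LIPH and EIF4A2 were added after their values were seen. Alternatives were other pseudocounts, filters, normalization and spread estimates, averaged probe sets, a replicate block and leaving out each array. The second TEM2-5 array carries 2 replicate numbers in its labels, and its title was followed.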

Additional observations from a re-analysis of the deposited data

Results flagged for a closer look

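AP2M1 differed between the TEM lines, with TEM4-18 above TEM2-5 by 0.295 on the log2 scale, by the limma test of that difference (adjusted p = 0.0453). Groups of 2 arrays are too small to single out an array that stands apart.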

How the results depend on the processing

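Leaving out the mean-variance trend took the TEM2-5 count of called genes from 27 to 8 (19% to 7.62% of all genes). It took the TEM4-18 count from 42 to 28 (29.3% to 17.2%). With probe sets averaged these counts were 24 (16.4%) and 35 (26.6%). Between the TEM lines, leaving out the trend took the count from 1 to 0 by gene (2.75% to 0.573%) and by probe set (1.78% to 0.382%). Keeping dim probe sets gave 0 and 0 there (1.02% and 0.549%). Fitting only the compared groups gave 2 and 2 (2.29% and 1.49%). By probe set, a filter at the 60th percentile gave 2 (2.97%). Leaving out 1 array gave 0 to 2 by gene and by probe set (limma). The replicate block gave 2 probe sets (2.67% of all) and, in TEM4-18 against PC-3, 46 called genes in place of 42. Under it BCL6 was called higher in both lines, and NCEH1 and TFRC lower in TEM4-18, none of which was called without it. NCEH1 was also called without PC-3 replicate 1 (-0.402), and TFRC at the 60th percentile filter. The differences replicate 2 minus replicate 1 correlated between lines at 0.088 to 0.117 over 13614 genes. This is weak, but it does not exclude a shared effect of the replicate number on single genes. With the block, the share of all genes called in TEM4-18 against PC-3 went from 29.3% to 32.9%. The TEM4-18 median of 0.551 became 0.533 with 4 times the pseudocount, 0.493 without a filter, 0.54 at the 60th percentile, 0.412 with probe sets averaged and 0.631 without _s_at and _x_at probe sets, an alternative chosen after seeing the data. The TEM2-5 median of 0.328 became 0.268 and 0.425 under the last 2, and the difference between TEM lines 0.161 when averaged. Leaving out 1 array gave medians of 0.527 to 0.564, 0.299 to 0.356 and 0.15 to 0.204. KLHL24 in TEM4-18 turned to 0.924 without _s_at and _x_at probe sets. The causes were not tested.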
